A study of Mus musculus with 20 samples.

Results

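The nonclassical MHC class I genes examined here were H2-Q4, H2-Q6, H2-Q7, H2-T10, H2-T22, H2-T23, H2-T24 and H2-M3, 8 of the 15956 genes listed for the left ventricle of aging mice. They were taken by name from the listed genes, all of which had a total of at least 60 counts. RNA came from 20 mice labelled 18 months old, although the study's methods put the killing at a younger age, with 5 mice on each of 4 diets, abbreviated as in the labels: NP for a diet with a normal protein content, LP for one low in protein, HF for a high-fat diet, and HF + LP for a high-fat diet low in protein. Per the study's methods the mice were male, were bought from 1 supplier and ate ad libitum, and LP and HF + LP held less casein than NP and HF. The strain is not given in the sources used here, which matters for these genes because the Q and T regions differ in gene content between inbred strains. Whole ventricle wall was sequenced, so the counts mix cardiomyocytes, endothelial cells, fibroblasts and leukocytes, and fewer cells of a type and less RNA per cell cannot be told apart.

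MHC class I molecules consist of a heavy chain and the light chain beta-2 microglobulin. Classical heavy chains, such as those of H2-K1 and H2-D1, vary greatly between individuals and display cytosolic peptides to CD8+ T cells. Nonclassical heavy chains vary less, are usually made at lower levels and serve more specialized receptors: H2-T23 encodes Qa-1, which shows leader peptides of other class I chains to the CD94/NKG2 receptors of natural killer cells, H2-M3 binds peptides that start with formylmethionine, as those made in bacteria and mitochondria do, and the products of H2-T10 and H2-T22 are read directly by some gamma-delta T cells. H2-Q6 and H2-Q7 belong to the group that encodes Qa-2, a lipid-anchored or secreted molecule. Interferons raise the transcription of most class I genes.

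The members lay together on chromosome 17 (GRCm38), over 1.895 Mb from 35379617 to 37274484. H2-Q4 (ENSMUSG00000035929, 35379617 to 35385290), H2-Q6 (ENSMUSG00000073409, 35424850 to 35430055), H2-Q7 (ENSMUSG00000060550, 35439155 to 35443773) and H2-M3 (ENSMUSG00000016206, 37270220 to 37274484) were on the plus strand. H2-T24 (ENSMUSG00000053835, 36005695 to 36020560), H2-T23 (ENSMUSG00000067212, 36029773 to 36032855), H2-T22 (ENSMUSG00000056116, 36037128 to 36042747) and H2-T10 (ENSMUSG00000079491, 36115876 to 36121465) were on the minus strand. The annotation classed H2-T10 as a polymorphic pseudogene and the other 7 as protein coding. H2-T22, H2-T23 and H2-T24 overlap the antisense gene A930015D03Rik and H2-Q4 overlaps the antisense gene Gm11131, and whether the counting used strand is not given in the sources used here, so reads of such pairs cannot be told apart. A930015D03Rik had at most 9.43 and Gm11131 at most 28.99 normalized counts in any mouse.

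The RefSeq promoters, 300 bases around each start site (GRCm38.p6), matched 6 of the 8 members by symbol, the exceptions being H2-T10 and H2-T24. They were searched on both strands for 10-letter patterns of the NF-kappaB motif, of the interferon-stimulated response element and of a variant of that element in its last letters, the last chosen after the promoters had been seen. The stretches of 60 bases are shown side by side because they hold these letters, in capitals, in each member that has a promoter, and they split the members into 3 kinds.
H2-Q4, chr17:35379432-35379491, plus strand: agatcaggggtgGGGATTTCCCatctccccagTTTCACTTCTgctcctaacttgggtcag
H2-Q6, chr17:35424665-35424724, plus strand: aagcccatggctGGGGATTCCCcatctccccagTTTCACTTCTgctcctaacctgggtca
H2-Q7, chr17:35439010-35439069, plus strand: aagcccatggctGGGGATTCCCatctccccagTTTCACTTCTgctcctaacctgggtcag
H2-T22, chr17:36042886-36042945, minus strand: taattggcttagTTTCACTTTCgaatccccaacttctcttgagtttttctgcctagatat
H2-T23, chr17:36032778-36032837, minus strand: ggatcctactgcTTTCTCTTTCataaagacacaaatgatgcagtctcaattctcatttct
H2-M3, chr17:37270121-37270180, plus strand: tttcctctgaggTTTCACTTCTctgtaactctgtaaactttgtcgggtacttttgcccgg

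The 3 Q genes carried the NF-kappaB letters followed closely by the variant element, H2-T22 and H2-T23 the interferon-stimulated element alone, and H2-M3 the variant element alone. The NF-kappaB letters occurred in 1.75% of all 32851 promoters, the interferon-stimulated element in 3.44% and the variant in 3.02%. Each printed match is a match of letters, not a measured binding site. H2-Q6 and H2-Q7 were 97.7% identical over 260 aligned promoter bases, and H2-Q4 and H2-Q6 89.6% identical over 280 bases. The planned shorter patterns were also searched: TTCNNNGAA, the gamma-activated sequence, occurred in H2-M3 alone (8.30% of all promoters), TGACG, the X2 site, in 4 of the 6 (20.8%), and ATTGG, the Y box, in all 6 (37.4%). The classical genes H2-K1 and H2-D1 also carried the NF-kappaB letters followed by the variant element, so this layout is not particular to the Q genes. For scale, the promoters of H2-K1 and H2-D1 aligned to that of H2-Q7 at 86.6% and 84.6%. That of H2-Q4 did so at 88.0% and that of the unrelated light chain gene B2m at 72.7%.

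The whole 300-base promoters of H2-Q7 and H2-T22, the members with the most reads of the Q and the T region, are printed with the same letters in capitals.
H2-Q7, chr17:35438905-35439204, plus strand: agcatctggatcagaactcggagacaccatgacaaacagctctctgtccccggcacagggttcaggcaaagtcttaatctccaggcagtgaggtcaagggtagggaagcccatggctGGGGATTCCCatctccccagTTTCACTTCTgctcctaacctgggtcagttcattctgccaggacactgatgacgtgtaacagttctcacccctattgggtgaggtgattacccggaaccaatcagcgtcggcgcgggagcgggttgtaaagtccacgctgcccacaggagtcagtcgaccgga
H2-T22, chr17:36042693-36042992, minus strand: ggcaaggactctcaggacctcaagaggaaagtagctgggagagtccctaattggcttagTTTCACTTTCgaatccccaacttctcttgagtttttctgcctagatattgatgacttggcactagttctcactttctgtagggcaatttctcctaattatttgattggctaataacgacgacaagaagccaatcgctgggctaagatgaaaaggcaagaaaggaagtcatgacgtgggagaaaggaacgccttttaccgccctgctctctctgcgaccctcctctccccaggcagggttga

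Because reads were 75 bases long and came from the 3′ ends of transcripts, the last 400 bases of each member's annotated transcripts were searched, in windows of that length, in the whole transcripts of all other genes. No end window of H2-Q7 or H2-M3 was found in another gene. H2-Q6 had 38.8% of its end windows in other genes, chiefly 191 of 652 in transcripts of H2-Q7 upstream of the end stretches of that gene, and 48 end windows of H2-K1 were found there too, so counts of H2-Q7 may still hold reads from these genes. Of the 969 end windows of H2-D1, 71 were found in H2-T23 and 56 in H2-Q6. The end stretches of H2-T10 and H2-T22 shared 148 windows with each other (22.7% and 22.6%). Their longest transcripts were 97.6% identical for H2-T10 and H2-T22 and 91.8% identical for H2-Q6 and H2-Q7. H2-Q4 shared 15.8%, H2-T23 7.11% and H2-T24 1.53%. The counts of H2-Q4, H2-Q6, H2-T10, H2-T22 and H2-T23 are therefore uncertain as to which gene they came from. H2-Q8 and H2-Q9, the other Qa-2 genes, were not among the listed genes, and where their reads went is not given in the sources used here.

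The libraries held 12559607 to 23331907 counts each. A pair of LP libraries stood apart in markers of other cell types. LP 20 had 1185 normalized counts of the T cell gene Cd8a, with 9.46 at most in the other 19 libraries, and 1572 of Rag1, the lymphocyte recombinase, with 4.77 at most elsewhere. LP 13 had 6037 normalized counts of Ucp1, the uncoupling protein of brown fat, with 952 in LP 20. Values without these libraries are given beside the comparisons and beside the order of group means and the correlations. All groups share an estimate of the spread, so these libraries bear on the tests without LP mice too. Ucp1 was also higher in HF 3 (568) and HF + LP 3 (188) than in the remaining 16 mice (at most 71.8), and HF 3 had the highest adipocyte marker sum outside LP (1058). Without HF 3 the median over the members was 0.61 in HF compared to NP and -0.9997 in HF + LP compared to HF. Mitochondrially encoded genes held 38.1 to 39.8% of the counts in HF, below the 41.3 to 47.1% of all NP mice, and 38.5 to 47.2% in HF + LP. Scaled without these genes, the median over the members was 0.61 in HF compared to NP and -1.02 in HF + LP compared to HF. Cardiomyocyte markers were abundant in every library, with a summed level of 500437 to 787607 normalized counts over 7 genes.

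All 8 members had counts, as every listed gene did, but most of them had low ones. H2-Q7 gave 54.8% of the summed normalized counts of the 8 genes, H2-T22 19.4%, H2-Q4 11.01% and H2-Q6 6.44%, and the other 4 gave 0.922% to 3.88% each. These are shares of 3′ end reads, which are not scaled by transcript length. Raw counts over the 20 mice ran from 195 to 986 for H2-Q7, from 27 to 372 for H2-T22, from 17 to 267 for H2-Q4, from 12 to 132 for H2-Q6, from 8 to 89 for H2-M3, from 1 to 43 for H2-T24 and from 0 to 82 for H2-T10. H2-T23, the Qa-1 gene, had 1 to 33 counts and was the 1 member that did not pass the low-count filter, so 7 members entered the test. H2-Q7, H2-T22 and H2-Q4 were the only 3 members with a mean normalized count over 50, the minimum the study set for calling a gene. Added together, the 8 members had 13.7% ± 3.02 (SD, n = 5) of the normalized counts of H2-K1 plus H2-D1 in NP. The share was 13.9% ± 1.03 in HF, 13.0% ± 2.77 in LP (12.4% ± 1.80 over 3 mice without LP 13 and LP 20) and 11.8% ± 1.57 in HF + LP, so the groups overlapped in this share.

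**Figure D1:**
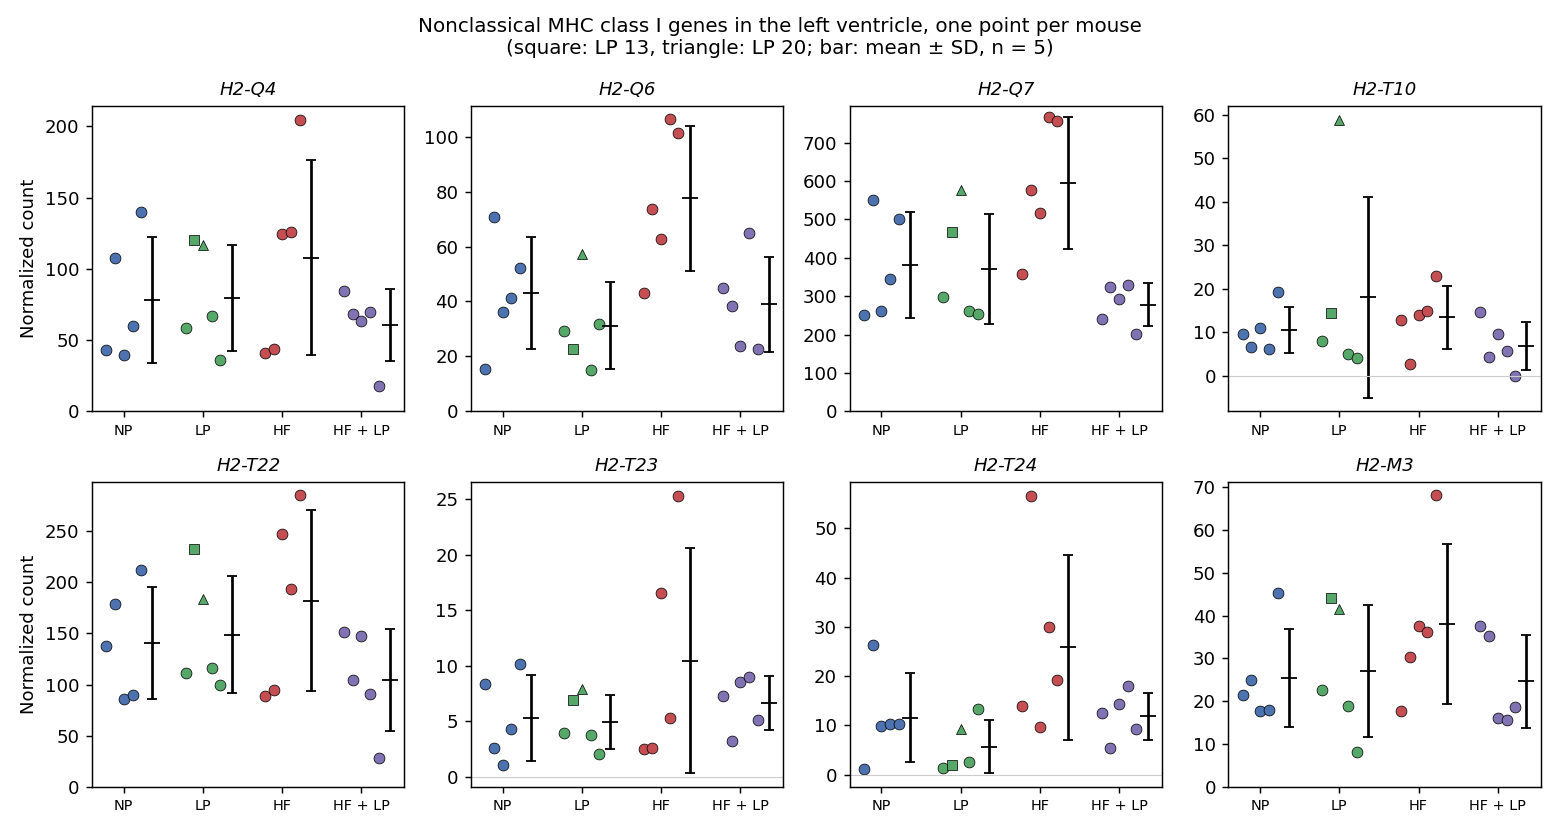
Normalized counts (vertical axes, linear) of the 8 genes in each of the 20 mice by diet, with the group mean ± SD (n = 5). The 5 HF points of H2-Q7 lie at 359 to 766, above the 5 HF + LP points at 201 to 330.4, whereas the HF points of H2-Q4 and H2-T22 are split into low and high mice.

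The first comparison asked how the high-fat diet bore on these genes at normal protein. All 7 tested members had a higher level in HF than in NP, with a median log2 fold change of 0.60 (0.27 without HF 5), whereas the median over all 13991 genes tested was -0.001 and 49.8% of them were higher. None was called at an adjusted p under 0.01 with a mean count over 50 (edgeR quasi-likelihood test, Benjamini-Hochberg adjustment), a rule that called 37 genes, or 0.264%. At an unadjusted p under 0.05, H2-Q6 and H2-Q7 were higher, against 5.17% of all genes in that direction. DESeq2 called none of the members either, and 163 genes (1.17%). With LP 13 and LP 20 left out of the shared estimate of the spread, edgeR called 76 of 14141 genes and again no member.

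H2-Q7, the Qa-2 gene with the most reads, had 250.6, 551, 262, 345 and 501 normalized counts in NP mice 4, 5, 3, 6 and 8. In HF mice 1 to 5 it had 359, 577, 518, 766 and 756. HF 2, HF 4 and HF 5 lay above every NP mouse, and HF 1 and HF 3 lay within the NP range. The means were 382 ± 138 in NP and 595 ± 171 in HF (SD, n = 5), which gave a log2 fold change of 0.64 (SE 0.27, edgeR adjusted p = 0.287).

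H2-Q6, its near copy, had 15.5, 70.8, 36.3, 41.3 and 52.0 normalized counts in the same NP mice and 43.2, 73.8, 62.9, 106 and 101 in HF mice 1 to 5. Here too HF 2, HF 4 and HF 5 lay above all NP mice, although NP 5 was close behind. The log2 fold change was 0.85 (SE 0.38, edgeR adjusted p = 0.329). H2-Q6 made up 11.4% ± 0.625 of the raw counts of the pair in HF and 9.90% ± 2.49 in NP.

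The T region members and H2-Q4 were spread more widely within HF. H2-T22, a ligand of gamma-delta T cells, had 89.0 and 94.9 normalized counts in HF 1 and HF 2 but 247, 194 and 285 in HF 3, HF 4 and HF 5, and H2-Q4 had 40.7, 43.5, 125, 126 and 205 in the same mice. The NP values of H2-T22 were 137, 178, 85.8, 89.5 and 211, and those of H2-Q4 were 43.0, 108, 39.6, 60.2 and 140.2. The groups overlapped, with HF 3 and HF 5 above every NP mouse for H2-T22 and HF 5 alone for H2-Q4. The log2 fold changes were 0.39 (SE 0.39) for H2-T22 and 0.49 (SE 0.47) for H2-Q4. Both rested on single mice: they were 0.17 and 0.12 without HF 5, 0.59 and 0.81 without NP 8, and 0.26 and 0.32 without NP 3, and H2-T22 was at 0.26 without HF 3. H2-M3, which presents formylated peptides, had a log2 fold change of 0.60 (SE 0.42, adjusted p = 0.616), with 17.6 to 45.2 normalized counts in NP and 17.8 to 68.3 in HF, and it was at 0.27 without HF 5 and 0.91 without NP 8. H2-T24 had a log2 fold change of 1.15 (SE 0.59, adjusted p = 0.426), with 1.19 to 26.2 normalized counts in NP and 9.61 to 56.7 in HF. The highest of these was HF 2, without which the value fell to 0.67. H2-T10 had one of 0.40 (SE 0.70), which ran from 0.12 without HF 5 to 0.73 without NP 8. H2-T23, outside the test, had 1.101 to 10.2 normalized counts in NP and 2.54 to 25.3 in HF.

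The second comparison asked how a lower protein content of the high-fat diet bore on these genes. All 7 tested members were lower in HF + LP than in HF, with a median log2 fold change of -1.004, against a median of 0.017 over all genes, of which 46.3% were lower. No member was called by edgeR, and neither was any of the other genes (0.0%). H2-Q6 and H2-Q7 passed an unadjusted p of 0.05, against 2.43% of all genes in the lower direction. In the edgeR fit without LP 13 and LP 20, H2-T22 passed that level too, against 503 of 14141 genes in the lower direction. The adjusted p of H2-Q7 was then 0.0906, and no gene was called. HF is the group that was high in the first comparison, so the opposite signs of the 2 comparisons share the same 5 HF mice.

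H2-Q7 separated the groups completely. HF + LP mice 1 to 5 had 241, 325, 292, 330.4 and 201 normalized counts, each of them below the lowest HF mouse at 359. Non-overlap in this direction was found for 89 of all genes tested, or 0.636%. The mean was 595 ± 171 in HF and 278 ± 55.8 in HF + LP, a log2 fold change of -1.10 (SE 0.27, edgeR adjusted p = 0.238). With DESeq2 the adjusted p for H2-Q7 was 0.0191 when all 4 groups were modelled (0.114% of all genes called, H2-Q7 not among them) and 0.00041 when only HF and HF + LP were, and in the latter fit H2-Q7 was 1 of 27 genes called (0.202%).

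H2-Q6 had 44.8, 38.5, 23.8, 65.0 and 22.7 normalized counts in HF + LP mice 1 to 5, and 3 of these 5 mice lay below all HF mice. Its log2 fold change was -1.004 (SE 0.38, edgeR adjusted p = 0.714). H2-T22 had 151, 105, 147, 90.7 and 27.8 and H2-Q4 had 84.4, 68.4, 63.7, 69.4 and 17.5 in these mice. HF + LP 5 was the lowest of all 20 mice for both genes, and the other 4 overlapped with HF. The log2 fold changes were -0.81 (SE 0.40) for H2-T22, -0.85 (SE 0.47) for H2-Q4, -0.64 (SE 0.42) for H2-M3, -1.10 (SE 0.58) for H2-T24 and -1.01 (SE 0.73) for H2-T10, all with an edgeR adjusted p of 0.999. Without HF 2 the value of H2-T24 was -0.62, and without HF 5 those of H2-Q4 and H2-M3 were -0.48 and -0.32. H2-T10 had no read in HF + LP 5 and 4.27 to 14.6 normalized counts in the other HF + LP mice, and H2-T23 had 3.21 to 8.96 in that group.

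**Figure D2:**
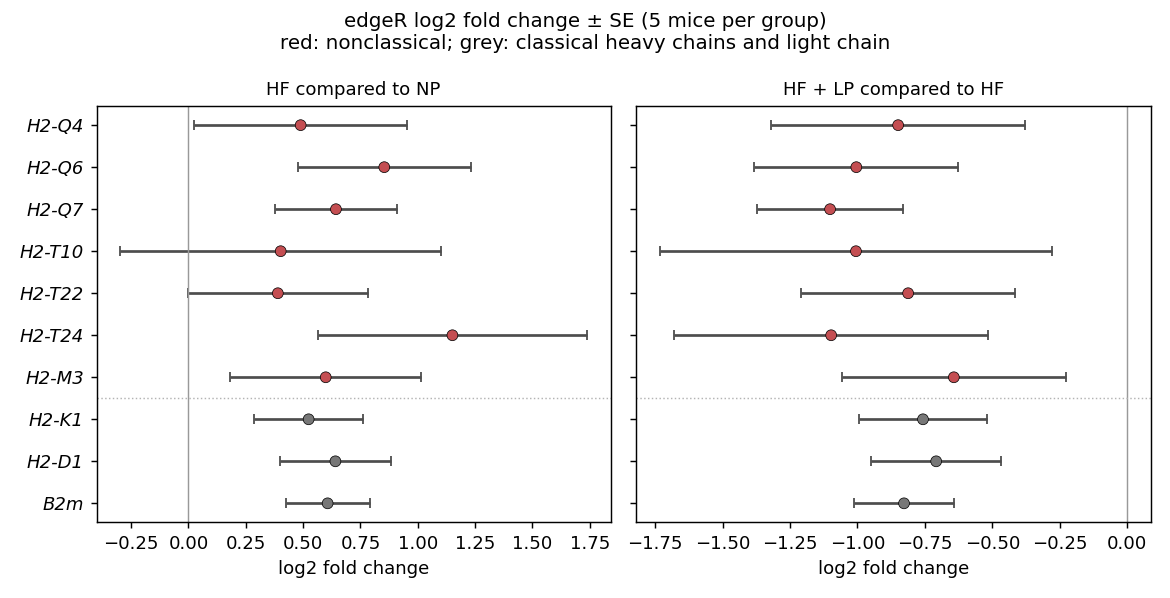
edgeR log2 fold changes (horizontal axes) with their SE for the 7 tested members (red) and for H2-K1, H2-D1 and B2m (grey), for HF against NP (left) and HF + LP against HF (right). All 10 genes lie above 0 on the left, with the intervals of H2-T10 and H2-T22 reaching 0, and all 10 lie below 0 on the right, where H2-Q7 at -1.10 has the narrowest interval of the 7 members.

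Library names carried a number from 1 to 3 whose meaning is not given in the sources used here, and mice with different numbers differed. Among the mice numbered 3, all 7 tested members were lower in HF + LP than in HF (3 mice against 3, median difference -1.36 in log2 CPM). Among those numbered 1 and 2, with 1 mouse on each side, 2 and 3 of the 7 members were lower and the medians were 0.17 and 0.14. H2-Q7 was lower in HF + LP within each number, by 0.57, 0.83 and 1.31 on the log2 scale for numbers 1, 2 and 3. For HF compared to NP, 7 of 7 members were higher among mice numbered 3 (3 against 2, median 0.35), 4 of 7 among those numbered 1 (1 against 1, median 0.35) and 5 of 7 among those numbered 2 (1 against 2, median 0.70). The part of this number in the results was not tested beyond a model with the number as a covariate, in which H2-Q7 between HF + LP and HF had a log2 fold change of -1.08 and an adjusted p of 0.276.

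Low protein on its own, in LP compared to NP, gave no common direction. Of the 7 tested members 4 were higher and 3 lower (54.6% of all genes were higher), the median log2 fold change was 0.052, and none was called by edgeR, as for all genes (0.0%). No member had an unadjusted p under 0.05 (5.02% of all genes were higher and 2.21% lower at that level), and DESeq2 called 0 members of 4 genes in all (0.0286%). The LP values of H2-Q7 were 297, 467, 576, 261 and 253 in LP mice 2, 13, 20, 15 and 5, so that LP 13 and LP 20 alone lay above the others. The same pair was highest in LP for H2-T22 (233 and 184), H2-Q4 (120.1 and 117) and H2-M3 (44.0 and 41.6). Without LP 13 and LP 20, all 7 members were lower in LP than in NP, with a median of -0.63, and none was called. The value for H2-Q7 was then -0.50. By library number, with all mice kept, 7 of 7 members were higher in LP among mice numbered 1 (2 against 1, median 0.52 in log2 CPM). Among those numbered 2, 6 of 7 were higher (1 against 2, median 1.05), and among those numbered 3 all 7 were lower (2 against 2, median -1.15). LP 13 was numbered 1 and LP 20 was numbered 2. The part of the T cell and fat markers of these libraries in the member counts was not tested.

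HF + LP mice compared to LP mice gave a median of -0.41 over the members, 5 lower and 2 higher (54.2% of all genes were lower), which became 0.27 without LP 13 and LP 20. Compared to NP, HF + LP had 6 of 7 members lower (49.8% of all genes) and a median of -0.36. By library number, 7 of 7 were lower than in NP among mice numbered 3 (3 against 2, median -0.96 in log2 CPM). In contrast, 6 of 7 were higher among those numbered 1 (1 against 1, median 0.75) and 4 of 7 among those numbered 2 (1 against 2, median 0.11). No member was called or had an unadjusted p under 0.05 with edgeR in either comparison. Over all genes 0.1% and 0.0286% were called, 6.26% and 3.9% were higher and 9.66% and 4.87% lower at that unadjusted level, and DESeq2 called no member (0.6% and 0.222% of all genes). The interaction, which is the difference of HF + LP from HF less that of LP from NP, was negative for all 7 members (51.0% of all genes) with a median of -0.90 (-0.27 without LP 13 and LP 20). Its estimate for H2-Q7 was -1.07 (SE 0.38, edgeR adjusted p = 0.650), no member was called (0.0% of all genes), and H2-Q7 was the 1 member with an unadjusted p under 0.05, against 4.31% of all genes that were lower. Without LP 13 and LP 20 the estimate for H2-Q7 was -0.61 and it too missed that level. The DESeq2 interaction called none of the members (0.00715% of all genes).

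In the order of the group means HF came first for 7 of the 8 members, and for H2-T10 the first was LP, through LP 20. HF + LP came last for H2-Q4, H2-Q7, H2-T10, H2-T22 and H2-M3, and LP came last for H2-Q6, H2-T23 and H2-T24. Of the 24 pairs of neighbours in these orders, 2 differed by more than the larger SD of the pair, and both were HF above NP: 34.3 normalized counts for H2-Q6 (larger SD 26.5) and 213 for H2-Q7 (larger SD 171). The other 22 neighbouring means lay within the spread of the mice. Without LP 13 and LP 20, HF came first for all 8 members and LP last for 7, with H2-T22 the exception, and the same 2 pairs differed by more than the larger SD.

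The members did not all vary together between mice of the same diet. After each group mean was subtracted, H2-Q4 and H2-T22 had a Pearson correlation of 0.92 over the 20 mice, H2-Q4 and H2-Q7 one of 0.80, H2-Q4 and H2-M3 one of 0.76, and H2-T10 and H2-T22 one of 0.74. H2-T24 stood outside this set, with 0.038 to H2-Q4, -0.056 to H2-T22 and -0.19 to H2-M3, but 0.65 to H2-Q6 and 0.39 to H2-Q7. H2-Q6 and H2-Q7 had 0.75. The points share their libraries and depth, the ends of H2-T10 and H2-T22 share sequence and that of H2-Q6 does with H2-Q7 transcripts, so these values are descriptions only. Over the 18 mice without LP 13 and LP 20, H2-Q4 and H2-T22 had 0.91 and H2-Q6 and H2-Q7 0.77, whereas H2-Q7 and H2-T10 had 0.24, compared to 0.50 over all mice. HF 2 shows the split in 1 mouse: it was the highest of all 20 mice for H2-T24 (56.7) and above every NP mouse for H2-Q7 and H2-Q6, but among the lower mice for H2-T22 and H2-Q4.

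**Figure D3:**
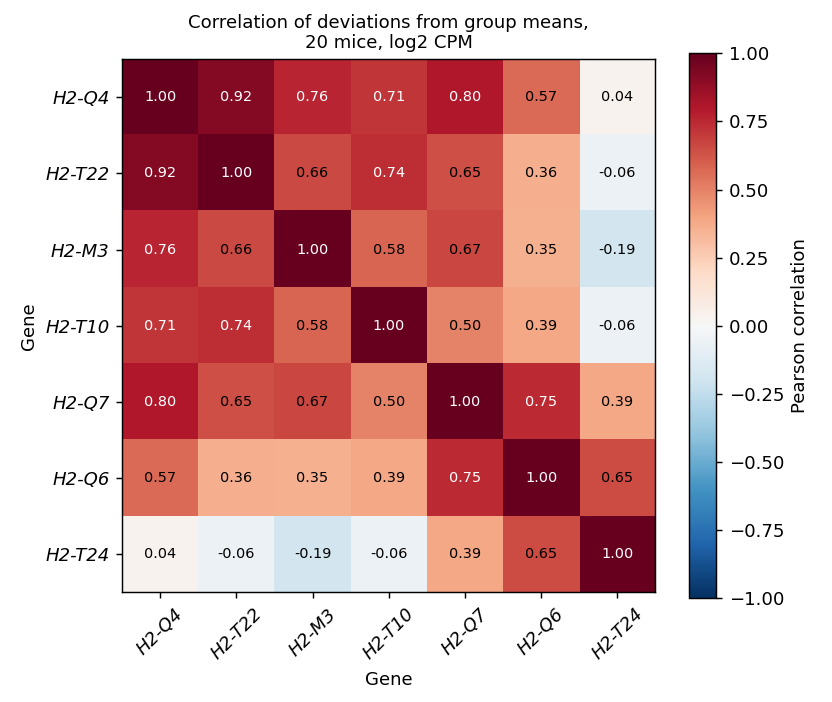
Pearson correlations between the 7 tested members of log2 CPM deviations from the group means over 20 mice. H2-Q4, H2-T22, H2-M3, H2-T10 and H2-Q7 form a block with values of 0.50 to 0.92, and H2-T24 correlates mainly with H2-Q6 (0.65).

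The genes outside the members whose pattern was most like the mean of the 7 tested members over the 20 mice, among 10156 genes with a mean count over 50, were Ifit1 (r = 0.90), an interferon-induced RNA-binding protein, Trim12c (0.89), Timeless (0.87), which works at replication forks, Psmb8 (0.87), a catalytic subunit of the immunoproteasome that trims class I peptides, and H2-D1 (0.86). By deviations from the group means, 3 of these 5 were still among the 5 closest. The closest gene to each single member differed. It was B2m for H2-Q7 (0.94), Csf1, the macrophage growth factor, for H2-T22 (0.94), Trim30a for H2-T24 (0.93), Timeless for H2-Q4 (0.89), Fen1 for H2-T10 (0.88), Ifi44, an interferon-induced gene, for H2-Q6 (0.87) and Cd300ld, a myeloid receptor, for H2-M3 (0.83). All are correlations across the same 20 libraries. Without LP 13 and LP 20, 4 of the 5 genes closest to the mean stayed among the closest 5, and the closest gene was the same for 4 members (H2-Q4, H2-Q6, H2-Q7 and H2-M3), while it became Timeless for H2-T22, Trim30d for H2-T24 and App for H2-T10.

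**Figure D4:**
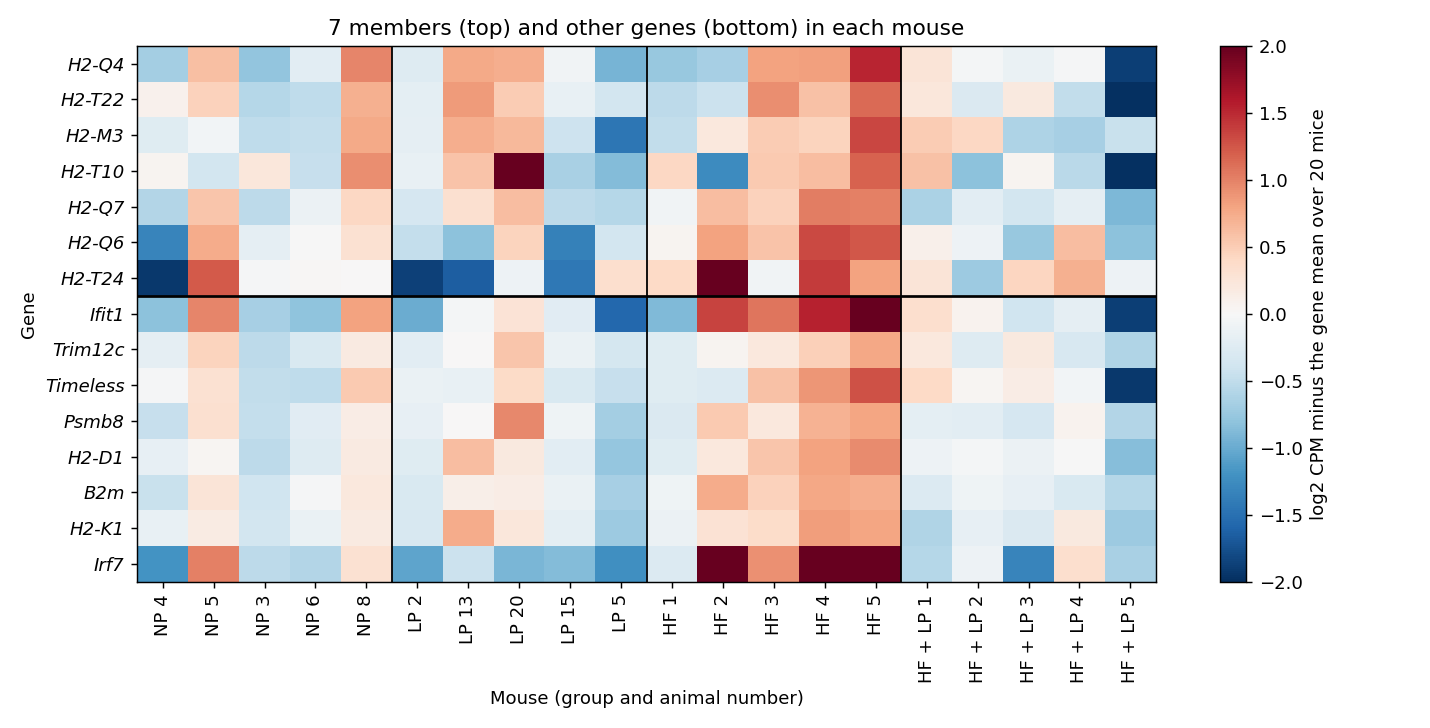
Log2 CPM minus each gene's mean over the 20 mice (colour), for the 7 tested members above the line and the 5 genes closest to their mean with B2m, H2-K1 and Irf7 below it. HF 4 and HF 5 are above the mean for all 7 members, HF + LP 5 is below it for all 7, and HF 2 is above it for H2-T24, H2-Q6 and H2-Q7 and below it for H2-Q4, H2-T22 and H2-T10.

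The rest of the class I pathway was read from lists of its parts, with the same test. The classical heavy chains and the light chain had the same signs as the members: B2m was higher in HF than in NP by 0.61 (SE 0.18, edgeR adjusted p = 0.107), H2-D1 by 0.64 (SE 0.24) and H2-K1 by 0.52 (SE 0.24), and in HF + LP compared to HF they differed by -0.83 (SE 0.18, adjusted p = 0.191), -0.71 and -0.76. All 3 passed an unadjusted p of 0.05 in both comparisons with edgeR, which called none. DESeq2 on all 4 groups called B2m in HF + LP compared to HF (adjusted p = 0.0059) and not in HF compared to NP (0.0340). Of the 6 tested class I-like genes beyond these, 2 were higher and 4 lower in HF, with a median of -0.12 and none with an unadjusted p under 0.05. Against HF, the HF + LP mice had a median of 0.013 over these 6 genes, and Procr, the endothelial protein C receptor, was the 1 lower at that level.

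Among the 8 peptide loading genes, all were higher in HF (median 0.21), 1 with an unadjusted p under 0.05, and 7 were lower in HF + LP than in HF. That gene was Tap1, a subunit of the peptide transporter, with a log2 fold change of 0.62 (SE 0.24) in HF compared to NP and -0.94 (SE 0.24, edgeR adjusted p = 0.251) between HF + LP and HF, where its groups did not overlap. Of the 5 immunoproteasome genes, Psmb8 was the 1 with an unadjusted p under 0.05, at 0.54 (SE 0.25) and -0.68 (SE 0.25) in the respective comparisons. Of the 17 transcription factors of class I genes, 2 were higher and 1 lower in HF at that level, while 5 were lower with HF + LP than with HF. Irf7, a master factor of the interferon response, differed by 1.88 (SE 0.45, edgeR adjusted p = 0.0397) and by -2.25 (SE 0.46, adjusted p = 0.134), Irf9 by 0.82 and -0.94, and Stat2 by -0.84 (SE 0.24) in HF + LP compared to HF. None of these list genes was called by edgeR. DESeq2 on all 4 groups called Irf7 (adjusted p = 0.00162 and 0.000468) and Irf9 (0.00692 and 0.00544) in both comparisons, and no other gene of the loading, immunoproteasome and transcription factor lists.

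The listed receptor and lymphocyte genes were scarce, with 3 of 12 listed genes passing the filter, and these 3 are not all receptors for nonclassical class I. All 3 were higher in HF than in NP, and 2 were lower and 1 higher in HF + LP than in HF. Pirb, an inhibitory class I receptor of myeloid cells and B cells, had a log2 fold change of 0.44 (SE 0.25) in HF compared to NP and -0.56 (SE 0.25, edgeR adjusted p = 0.952) between HF + LP and HF. Trdc, the constant chain of the delta T cell receptor, was at 0.031 (SE 0.69) and -0.33 (SE 0.70), and Cd244a, a receptor of natural killer cells, at 0.15 (SE 0.48) and 0.31 (SE 0.46) in the same comparisons. Of the 8 listed mitochondrially encoded protein genes, the source of formylated peptides for H2-M3, 3 were higher and 5 lower in HF, and 7 were higher in HF + LP than in HF. mt-Nd6, the one with the smallest p in HF compared to NP, was higher in HF by 0.81 (SE 0.31, edgeR adjusted p = 0.246). mt-Nd4, with the next smallest p, was lower in HF by 0.43 (SE 0.18, edgeR adjusted p = 0.297). mt-Nd1, whose product yields a peptide known to bind H2-M3, was higher in HF + LP than in HF by 0.26 (SE 0.12, edgeR adjusted p = 0.980), whereas H2-M3 differed by -0.64.

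Macrophage, fibroblast and atrial markers had the same signs as the members in both comparisons. The macrophage markers' summed level over 8 genes was 4262 to 5943 normalized counts in NP, 5706 to 7255 in HF and 4214 to 6019 in HF + LP. All 8 were higher in HF than in NP, 5 with an unadjusted p under 0.05, and all 8 were lower in HF + LP than in HF, 1 at that level, and none was at 0 throughout. Fcgr1, an Fc receptor, had the smallest p of these, with log2 fold changes of 1.26 (SE 0.25, edgeR adjusted p = 0.0147) and -1.03 (SE 0.24, adjusted p = 0.217). Of the 6 fibroblast markers all were higher in HF (median 0.18, 1 with an unadjusted p under 0.05) and all lower in HF + LP than in HF (median -0.26, 2 at that level), and they summed to 15009 to 18417 normalized counts in NP, 16778 to 21334 in HF and 14453 to 17733 in HF + LP. The 4 atrial markers were all higher in HF (median 1.31) and all lower in HF + LP than in HF (median -1.36), none with an unadjusted p under 0.05, and their sums ran from 2423 to 60406 in NP, from 1876 to 204494 in HF and from 970 to 87124 in HF + LP. The high atrial level of HF rested on HF 1 (204494) and HF 3 (73696), and the median sum was 3228 in HF, below the 20853 of NP. HF 4 and HF 5, where the members were high, had atrial sums of 3228 and 1876. Of the 4 adipocyte markers 3 were lower in HF (median -0.18) and all were lower in HF + LP than in HF (median -1.86), none at that level. Their sums were 21.0 to 681 in NP, 12.3 to 165 in HF + LP and 7.04 to 1058 in HF, where HF 3 held the 1058 and the other 4 mice had at most 42.0. Cardiomyocyte markers, 7 in number, were all lower in HF, 3 with an unadjusted p under 0.05 (7.91% of all genes in that direction), and all higher in HF + LP than in HF, none at that level. They summed to 664806 to 787607 in NP, 535902 to 654021 in HF and 529702 to 762077 in HF + LP, so every HF mouse lay below every NP mouse. No marker of these 5 lists was called by edgeR, and DESeq2 on all 4 groups called Myh6, a cardiomyocyte myosin, and the collagen gene Col3a1 in HF compared to NP. Of the 7 endothelial markers 6 were higher in HF (median 0.19, none at that level) and 4 lower in HF + LP than in HF (median -0.042, 1 at that level, Pecam1). They summed to 17930 to 24085 in NP, 17182 to 30371 in HF and 18164 to 30766 in HF + LP. Of the 5 tested B cell markers 3 were higher in HF (median 0.29) and 3 higher in HF + LP than in HF (median 0.14), none at that level, and they summed to 179.6 to 1237 in NP, 182 to 527 in HF and 186 to 537 in HF + LP. Both tested natural killer cell markers were higher in HF (median 1.158, 1 at that level, Gzma), and 1 of them was lower in HF + LP than in HF. All 3 tested T cell markers were higher in HF (median 0.61) and 2 were higher in HF + LP than in HF, none at that level. T cell markers summed to 27.5 to 58.5 in NP, 44.0 to 57.6 in HF and 23.96 to 105 in HF + LP, and natural killer cell markers to 14.3 to 21.5, 10.2 to 50.2 and 26.7 to 37.1. In LP the T cell markers summed to 41.2 to 4803, the highest being LP 20. In LP compared to NP, all 3 tested T cell, both natural killer cell and 4 of 5 B cell markers were higher at that unadjusted level (5.02% of all genes). Compared to LP, HF + LP had all 3 T cell and all 4 adipocyte markers lower at that level (9.66% of all genes), with 1 of 2 natural killer cell and 2 of 5 B cell markers. The part of these cell types in the member counts was not tested.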

How the data were processed

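Left ventricle RNA from 20 mice was sequenced from transcript 3′ ends (QuantSeq) in 75-base reads. Alignment by the authors used BlueBee, the labels name GRCm38 as the build, and raw counts per Ensembl gene were deposited, with 12559607 to 23331907 counts per library. The submitters' processing notes name DESeq2 version 1.22.2. Groups came from the labels. Symbols, positions and 3′ ends were taken from the GENCODE M21 annotation and promoters from RefSeq.

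Genes were filtered by edgeR (version 4.0.16) filterByExpr, scaled by TMM and fitted over all 4 groups with its quasi-likelihood test, p-values being adjusted over all 13991 genes tested. Calls required an adjusted p below 0.01 together with a base mean above 50, as in the study. Normalized counts are counts divided by effective library size and multiplied by its mean. Log2 CPM used a prior count of 2. DESeq2 (version 1.42.0) was an alternative, and where it gave no adjusted p none is stated. Scripts were tested on simulated counts. Precision is set by 5 mice per group and, for the scarcer members, by few reads. Animals are numbered in the labels, and LP 5 is labelled as sample 2 of its animal. The p-values set a difference against the spread between mice, which the edgeR test estimated over all 4 groups. Alternatives changed scaling, filter, thresholds, samples and covariates. The members, lists and tests were chosen with earlier results of these data known. The genes named were the members, up to 3 genes of each other list with the smallest p in HF compared to NP and in HF + LP compared to HF, H2-K1, H2-D1, B2m and mt-Nd1, and those closest to the members in pattern. Ucp1, Rag1, Cd8a, Myh6, Col3a1 and the genes near or copying members were named after their values were seen. No comparison of protein sequences was made, and the similarity of transcripts was used in its place.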

Additional observations from a re-analysis of the deposited data

Results flagged for a closer look

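In 2 of the 32 combinations of a member and a diet group, 1 mouse lay further from the other 4 than Dixon's test allows for groups of 5 (gap over range above 0.71), a test that chance alone passes in about 1 of 20 groups. H2-T10 had 58.8 normalized counts in LP 20, with 4.10 to 14.47 in the other LP mice (gap over range 0.811). LP 20 is the library with the T cell genes, and 24.3% of its H2-T10 and H2-T22 counts were assigned to H2-T10, with 12.5% at most in any other mouse. H2-M3 had 45.2 normalized counts in NP 8, with 17.6 to 24.9 in the other NP mice (0.736). Without NP 8 the log2 fold change of H2-M3 in HF + LP compared to NP became 0.27.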

How the results depend on the processing

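In HF compared to NP and in HF + LP compared to HF, no alternative turned the direction of a member, and the median over the members ran from 0.27 (without HF 5) to 0.81 and from -1.05 to -0.69 (without HF + LP 5) when single mice were left out. The 1 count that changed was that of HF + LP compared to HF, which became 1 (H2-Q7, log2 fold change -1.13) with DESeq2 on only those groups, and over the alternatives its adjusted p lay between 0.00041 and 0.704. The cause was not tested. In the other comparisons members turned under several alternatives. In LP compared to NP, leaving out LP 13 and LP 20, an alternative added after the data were seen, gave -0.63 as the median, -0.54 for H2-Q4, -0.87 for H2-T10, -0.36 for H2-T22 and -0.63 for H2-M3. For HF + LP compared to LP it gave a median of 0.27, with 0.18 for H2-Q4, 0.027 for H2-Q7, 0.27 for H2-T10 and 0.59 for H2-M3, and for the interaction a median of -0.27. With the library number as covariate H2-Q7 was at 0.073 in LP compared to NP. Leaving out single mice gave, in LP compared to NP, medians of -0.25 to 0.29, with H2-Q4 at -0.15 to 0.37, H2-Q7 at -0.25 to 0.13, H2-T10 at -0.32 to 1.18, H2-T22 at -0.13 to 0.29 and H2-M3 at -0.13 to 0.44. It gave -0.40 to 0.084 for H2-M3 in HF + LP compared to LP, -0.41 to 0.091 for H2-Q6, -0.23 to 0.56 for H2-T24 and -0.25 to 0.27 for H2-M3 in HF + LP compared to NP, and -0.64 to 0.37 for H2-T24 in the interaction, the mice whose absence turned a direction including HF + LP and HF mice (H2-M3 in HF + LP compared to NP at 0.078 without HF + LP 4, H2-T24 in the interaction at 0.34 without HF 2). With the animal number as a replicate block, LP compared to NP had -0.31 for H2-Q4, -0.011 for H2-T10, -0.14 for H2-T22 and -0.91 for H2-M3, HF + LP compared to LP a median of 0.49 with 0.49 for H2-Q4, 0.25 for H2-Q7 and 0.98 for H2-M3, HF + LP compared to NP 0.18 for H2-Q4, 0.0067 for H2-Q6 and 0.066 for H2-M3, and the interaction 0.23 for H2-M3. No member was called by edgeR with or without the block. Over all genes the block took the calls from 37 to 2 in HF compared to NP, from 14 to none in HF + LP compared to LP and from 4 to 1 in HF + LP compared to NP. Animals of different groups share only a number: deviations of same-numbered HF and HF + LP mice correlated at -0.55 to 0.48. As a mean of the shares of single mice, H2-Q7 had 55.2% of the member counts alone and 61.6% with its near copy H2-Q6 added, which can only raise it. By deviations from group means 3 of the 5 closest genes were the same. Depth limits H2-T10, H2-T23 and H2-T24 most, with raw counts down to 0 or 1.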

Other observations

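Other class I-like genes outside the comparisons were seen mainly in the libraries that stood apart. H2-Q2 had 106 and H2-M2 118 normalized counts in LP 20, with 3.145 and 15.1 at most in the other mice, and H2-Q10, a secreted class I gene best known from liver, had 194 in LP 13, with 48.1 at most elsewhere. These genes were chosen after their values were seen.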
